A study of Mus musculus with 18 samples.

Results

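Hyaluronan is a long sugar polymer of the extracellular matrix, and 7 mouse genes that make, cut or bind it are described here in cells labelled HL-1, a mouse atrial cardiomyocyte line. They are the synthases Has1, Has2 and Has3, the hydrolases Hyal1 and Hyal2, Cemip, a protein needed for hyaluronan breakdown at the cell surface, and the receptor Cd44. They were found by symbol as 7 of the 29112 genes in the deposited read-count table, and 6 of them passed the filter on low counts. Has3 did not. The set was chosen on measured values: Has1 lay lower in both transfection controls than in untransfected cells in high glucose, and lower again with the miR-200a-3p mimic than with its control. Differences in those 3 comparisons are therefore given as values with a standard error and without a test. The 2 comparisons that the choice did not use, high glucose against vehicle and inhibitor against inhibitor control, were tested. Each shares a group with the choice, high glucose or the inhibitor control, and so is not independent of it.

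RNA was sequenced from 18 libraries in 6 groups of 3. Untransfected cells received vehicle or high glucose. In high glucose, 4 further groups were transfected: with a mimic of miR-200a-3p, with the mimic's negative control, with an inhibitor of the same microRNA, and with the inhibitor's negative control. All cells were the same line, with no allele or transgene named, and transfected cells were harvested 48 h after transfection. Neither the glucose concentrations nor any mock treatment of untransfected cells is given in the sources used here. Separate cultures are not named, so p-values measure the spread between libraries, which may be technical.

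Hyaluronan is spun out through the plasma membrane by the synthases, which use UDP-glucuronic acid and UDP-N-acetylglucosamine as substrates. Long chains fill the matrix, while hydrolases and cell-surface depolymerisation give short fragments, and cells sense both through receptors such as Cd44. In the heart hyaluronan is known from the cardiac jelly of the embryo, where Has2 is required for valve formation, and from the matrix laid down after injury.

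The transfected agents act on or imitate a 22 nt microRNA, shown first because any pairing with the 7 transcripts rests on its seed (bases 2 to 8, in capitals). The mature sequence is from RefSeq (GRCm38.p6, chr4:156054911-156054932, minus strand).
miR-200a-3p: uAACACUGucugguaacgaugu
Its site words were searched in the 3' UTR of each gene's canonical transcript in GRCm39 (GENCODE M39): the 7-base match to the whole seed, CAGTGTT, the 7-base match AGTGTTA, the 8-base match CAGTGTTA that holds both, and the 6-base core AGTGTT. Has2 held 2 matches of the type CAGTGTT, 296 and 2571 bases past its stop codon in the last of its 4 exons (chr15:56530753-56530759 and chr15:56528478-56528484, minus strand). Cemip held 1, 162 bases past its stop codon in exon 29 of 29 (chr7:83584661-83584667, minus strand). They are printed with flanks, 5' to 3' on the transcript strand, and the matching bases are in capitals.
Has2, first site: catctgcctgaCAGTGTTtgttctaaata
Has2, second site: tttgtaaagacCAGTGTTtaaatgtggtt
Cemip: cagcccctgggCAGTGTTggccgatgcta
Has3 held 1 match of the type AGTGTTA, Cd44 held only 2 copies of the 6-base core, and no match was found in Has1, whose 3' UTR is 301 bases, in Hyal1 or in Hyal2. Among the 12579 tested genes with an annotated 3' UTR, 27.7% held a 7-base or 8-base match, and the median 3' UTR was 1354 bases. A match is a string of letters, not a shown binding site.

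Promoters are shown for Has1, Cemip and Cd44, the members that passed the test in high glucose. Each runs from 250 bases before to 50 after the start (RefSeq, GRCm38.p6), and motif matches on either strand are in capitals. Of the 7 genes, 5 had a promoter entry; Has2 and Has3 had none.
Has1 (chr17:17855139-17855438, minus strand): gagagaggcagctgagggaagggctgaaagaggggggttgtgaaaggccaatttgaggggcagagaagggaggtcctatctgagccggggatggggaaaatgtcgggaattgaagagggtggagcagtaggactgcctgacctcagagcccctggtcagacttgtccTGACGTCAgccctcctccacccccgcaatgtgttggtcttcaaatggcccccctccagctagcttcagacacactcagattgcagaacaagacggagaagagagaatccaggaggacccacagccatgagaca
Cemip (chr7:84086456-84086755, minus strand): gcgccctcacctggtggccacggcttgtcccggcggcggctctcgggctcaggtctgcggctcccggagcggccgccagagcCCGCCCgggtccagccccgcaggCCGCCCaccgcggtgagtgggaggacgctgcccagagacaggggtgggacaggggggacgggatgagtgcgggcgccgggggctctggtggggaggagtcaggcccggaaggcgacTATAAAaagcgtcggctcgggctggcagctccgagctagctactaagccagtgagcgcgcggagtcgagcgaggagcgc
Cd44 (chr2:102901616-102901915, minus strand): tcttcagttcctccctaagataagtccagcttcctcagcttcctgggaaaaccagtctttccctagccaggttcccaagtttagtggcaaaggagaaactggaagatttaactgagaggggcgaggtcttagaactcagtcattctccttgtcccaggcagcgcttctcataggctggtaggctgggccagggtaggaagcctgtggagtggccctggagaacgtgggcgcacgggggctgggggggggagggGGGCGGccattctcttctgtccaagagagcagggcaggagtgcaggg
The capitals in Has1 match the word of a cyclic-AMP response element, TGACGTCA, at position -83 from the start. That word was found in 1.79% of 32851 promoters of the same length, and whether it acts in Has1 was not tested. Cemip held 2 copies of the SP1 word GGGCGG and a TATAAA at -29, and Cd44 held 1 copy of GGGCGG just past the start. GGGCGG occurred in 35.7% of all promoters and TATAAA in 13.6%. The AP-1 word TGANTCA (7.81% of promoters) and the NF-kB word GGGNNTTCC (5.82%) occurred in none of these 3 windows.

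Library totals ran from 33655916 to 37928790 reads. Several defining cardiomyocyte transcripts were close to absent. Over all 18 libraries Nppa, the atrial natriuretic peptide, had 2 reads, Pln had 1, Mybpc3 had 6, Myh6 had 68, Actc1 had 77 and Tnni3 had 94. Other genes of the list were present: Tnnt2 had 27988 reads, Gata4 6262, Myl4 2084, Nkx2-5 733 and Ryr2 244. The cardiomyocyte list summed to between 33.2 and 90.7 CPM (reads scaled to library size with TMM, edgeR's normalisation factors), with 11 of its 12 genes listed. The summed level of 9 fibroblast markers was 10037 to 10723 CPM with vehicle and 10549 to 11990 in high glucose. It was 2347 to 2473 with the inhibitor, 2407 to 2515 in its control, 1073 to 1148 with the mimic and 1175 to 1198 in its control. That sum is mostly Col3a1, whose mean was 9169 CPM in high glucose and between 597 and 1555 CPM across transfected groups. Of 8 tested fibroblast markers, 6 were lower in the mimic control than in high glucose at an edgeR adjusted p under 0.05. In the inhibitor control 6 were lower and 1, Postn, was higher. Of all tested genes, 39.9% and 39.3% were lower in these comparisons. Postn and Thy1 lay at low levels. Postn was at 0.419 CPM in high glucose, 1.85 in the inhibitor control and 0.33 in the mimic control, and Thy1 at 0.802, 1.0 and 1.07 CPM. Lum, with 12 reads over all 18 libraries, had 0 reads in the transfected groups. The macrophage list was within 35.6 to 71.4 CPM in 17 libraries and at 1284 CPM in mimic replicate 2, where Lyz2 reached 870 CPM. The part of these marker levels in the results was not tested. In bulk RNA, fewer cells of a type and less RNA per cell cannot be told apart.

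Per length, Cd44 was the most abundant of the 7 transcripts in every group. Its mean FPKM (fragments scaled to transcript length and library size, as deposited) was 200.2 with vehicle and 162 in high glucose, and it lay between 46.5 and 61.5 in the 4 transfected groups. Has1 came next at 38.6 FPKM with vehicle, above 94.3% of the genes with a value, followed by Hyal1 at 6.90 FPKM. Has2 was at 3.58 FPKM, Hyal2 at 2.26 and Cemip at 1.91. This order held in high glucose, with the mimic and in its control as well. It differed in the inhibitor pair: with the inhibitor, Has1 (4.11 FPKM), Has2 (3.70) and Hyal1 (3.69) stood side by side. Cd44 kept 77.6% to 81.5% of the summed FPKM of the 7 genes throughout.

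**Figure D1:**
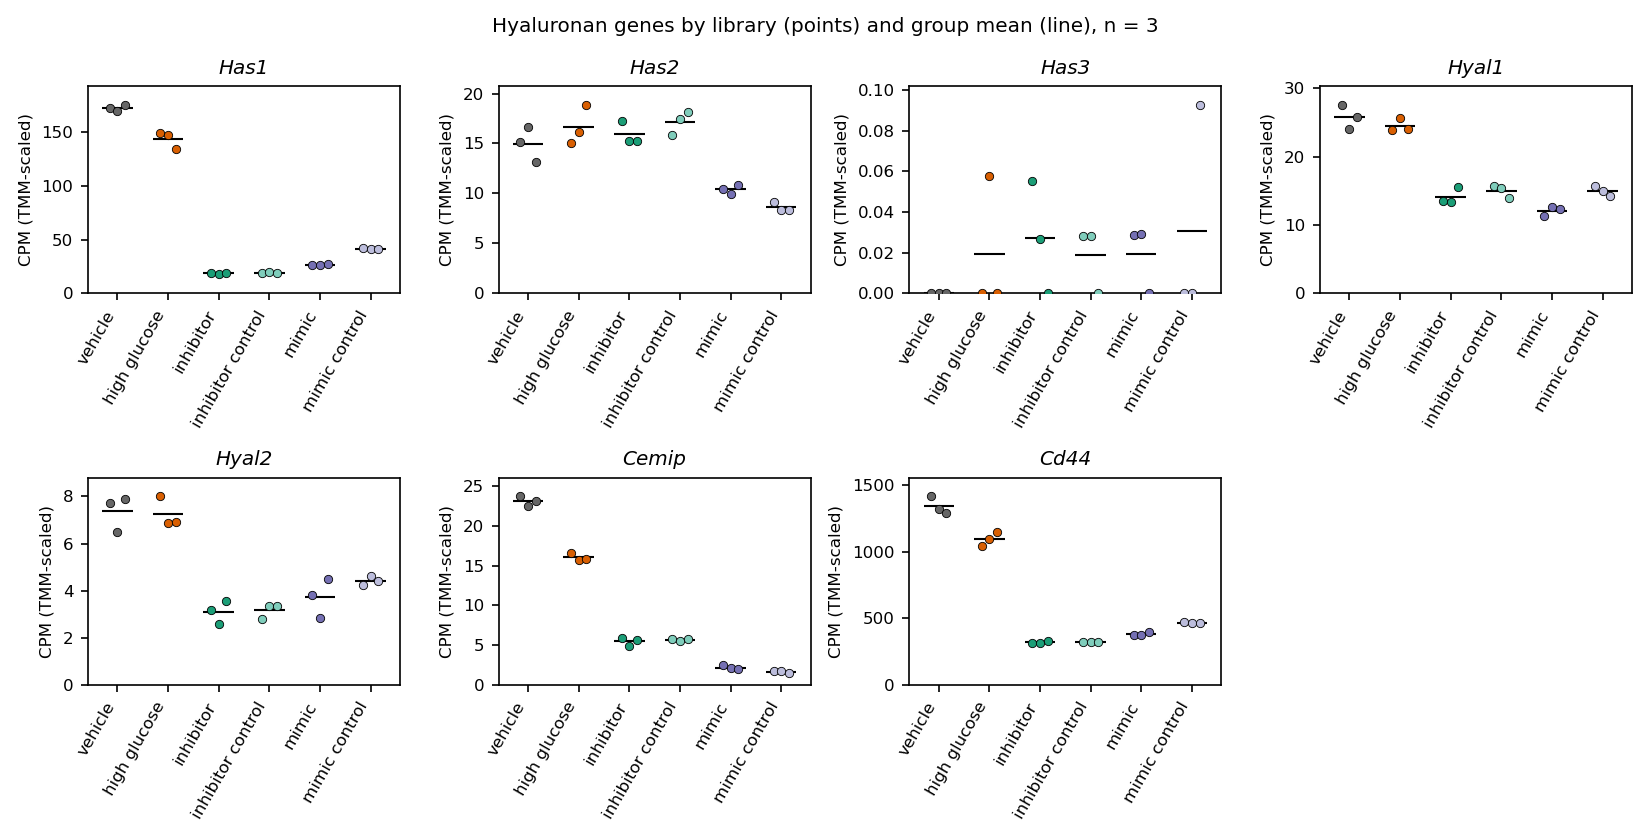
Level of each gene in CPM on a linear axis that starts at 0; points are the 3 libraries of a group and the line is their mean. Has1, Cemip and Cd44 step down from vehicle to high glucose and again to the transfected groups, whereas Has2 is lowest in the mimic and mimic control libraries, and Has3 is at or under 3 reads everywhere.

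Has1 makes hyaluronan at the plasma membrane from sugar nucleotides. With vehicle its 3 libraries read 172.6, 169.9 and 175.6 CPM. In high glucose they read 149.0, 147.2 and 134.4 CPM. All high-glucose libraries lay under all vehicle libraries. Mimic control libraries gave 42.7, 41.5 and 41.0 CPM, and mimic libraries gave 26.9, 26.1 and 27.2 CPM. The inhibitor control gave 19.0, 19.7 and 19.0 CPM and the inhibitor 18.8, 18.4 and 19.3 CPM. The groups thus formed 5 separate levels, since only inhibitor and inhibitor control overlapped. The 2 negative controls differed from each other 2.17-fold in Has1, without overlap, and Has1 was 1.39-fold higher with the mimic than in the inhibitor control.

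Has2, the synthase required in the embryonic heart, did not share this order. It read 15.2, 16.6 and 13.1 CPM with vehicle, 15.1, 16.2 and 18.9 CPM in high glucose, 17.2, 15.3 and 15.3 CPM with the inhibitor and 15.8, 17.4 and 18.1 CPM in the inhibitor control. These 4 groups overlapped one another. Mimic libraries read 10.5, 9.94 and 10.9 CPM and mimic control libraries 9.18, 8.39 and 8.31 CPM, both below the other 4 groups and apart from each other. Has2 thus stood at a mean of 10.4 CPM with the mimic and 8.63 CPM in its control. An antisense gene, Has2os, overlaps 8.03% of the exon bases of Has2 and had 17 to 49 reads a library.

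Has3, a further synthase, had 12 reads over all 18 libraries, 0 of them with vehicle and at most 3 in 1 library. A count of 0 allows up to 3 reads in a library by counting error alone, so no difference in Has3 was detectable at this depth.

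Since Has1 and Has2 differed in pattern, the make-up of synthase RNA differed between groups. Their summed FPKM was 42.2 ± 0.696 with vehicle and 35.9 ± 0.946 in high glucose (SD, n = 3 here and below). It was 7.81 ± 0.282 with the inhibitor, 8.15 ± 0.284 in its control, 7.88 ± 0.0850 with the mimic and 10.1 ± 0.321 in its control. Has1 supplied 91.5% ± 1.02 of that sum with vehicle and 88.9% ± 1.73 in high glucose. Its share was 81.9% ± 0.481 in the mimic control, 70.7% ± 0.508 with the mimic, 52.7% ± 1.86 with the inhibitor and 51.3% ± 1.65 in the inhibitor control. The ratio of Has1 to Has2 FPKM, averaged over libraries, was 10.9 with vehicle and 1.06 in the inhibitor control. Mimic and inhibitor libraries had nearly the same synthase sum with different shares of Has1 in it.

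**Figure D2:**
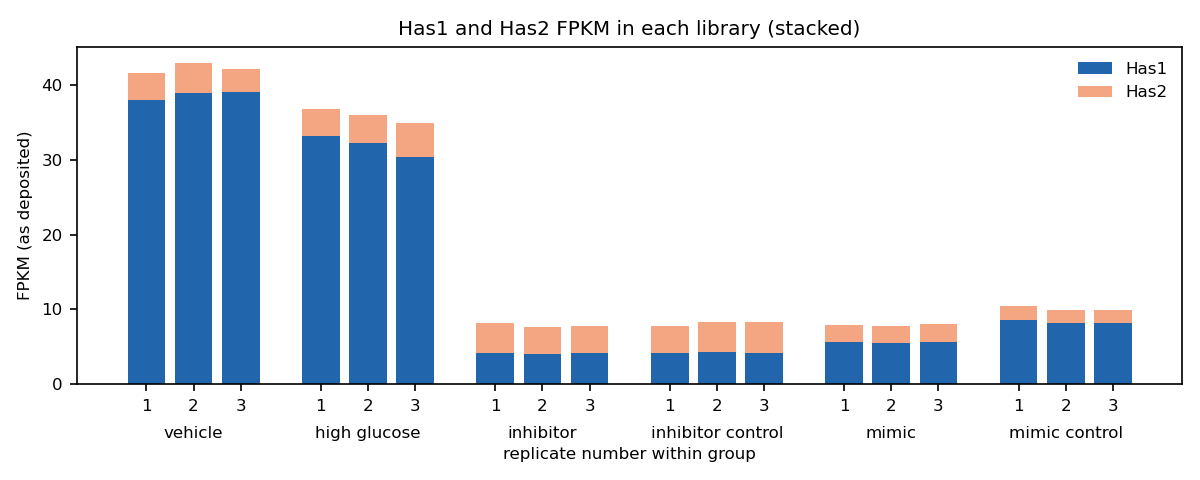
Stacked FPKM of Has1 and Has2 in each of the 18 libraries, by group and replicate number, on a linear axis from 0. The Has2 segment is similar across the first 4 groups while the Has1 segment is 38.6 FPKM on average with vehicle and 4.11 with the inhibitor.

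Hyal1, the lysosomal hyaluronidase, read 27.6, 24.1 and 25.8 CPM with vehicle and 24.0, 25.6 and 24.0 CPM in high glucose, which overlapped. Libraries with the inhibitor read 13.5, 13.4 and 15.5 CPM and its control 15.7, 15.4 and 14.0 CPM, overlapping each other. Mimic libraries read 11.3, 12.7 and 12.4 CPM, below the 15.7, 14.9 and 14.2 CPM of the mimic control. Transfected libraries thus held about the same level whatever was transfected, with the mimic lowest. Hyal1 counts are uncertain, because 50.8% of its exon bases lie in Naa80 and 38.0% in Hyal3 on the same strand (chr9:107454126-107458909 for Hyal1). Naa80 had 90 to 291 reads a library and Hyal3 0 to 16. Against high glucose, Naa80 differed on the log2 scale by -0.81 in the mimic control and -1.16 in the inhibitor control. For Hyal3 the values were -2.87 and -4.14. The part of shared reads in the Hyal1 levels was not tested.

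Hyal2, a hyaluronidase anchored to the cell surface that cuts long chains into intermediate fragments, lies just upstream on the same strand (chr9:107445086-107450171, GRCm39). It read 7.72, 6.51 and 7.90 CPM with vehicle and 8.0, 6.85 and 6.93 CPM in high glucose. Values were 3.2, 2.57 and 3.55 CPM with the inhibitor, 2.79, 3.37 and 3.35 CPM in its control, 3.82, 2.83 and 4.51 CPM with the mimic and 4.23, 4.64 and 4.42 CPM in the mimic control. All 12 transfected libraries lay below all 6 untransfected ones, with the inhibitor and mimic groups overlapping their own controls. Lower levels were common: at an edgeR adjusted p under 0.05, 39.9% of all tested genes were lower in the mimic control than in high glucose. For the inhibitor control the share was 39.3%.

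Cemip had the widest range of group means among the 6 tested members on the log2 scale, 3.74 against 3.19 for Has1. It read 23.7, 22.5 and 23.1 CPM with vehicle and 16.6, 15.7 and 15.8 CPM in high glucose, without overlap. The inhibitor gave 5.87, 4.93 and 5.70 CPM and its control 5.77, 5.47 and 5.75 CPM. Mimic libraries read 2.45, 2.13 and 1.97 CPM and mimic control libraries 1.78, 1.72 and 1.55 CPM, without overlap and on 50 to 86 reads a library. For Has1 the inhibitor control was the lower of the 2 controls; for Cemip it was the higher, by 3.37-fold.

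Cd44 (chr2:102641486-102732010, minus strand, GRCm39), the main hyaluronan receptor, links the matrix to the actin skeleton. With vehicle it read 1415, 1319 and 1294 CPM, and in high glucose 1039, 1095 and 1145 CPM. The inhibitor libraries read 315, 316 and 330 CPM and their controls 322, 325 and 319 CPM. Mimic libraries read 379, 375 and 399 CPM and mimic control libraries 471, 465 and 462 CPM. The order of groups was that of Has1: vehicle, high glucose, mimic control, mimic, and the inhibitor pair last and overlapping.

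High glucose against vehicle asks what the medium did in untransfected cells. Has1, Cemip and Cd44 fell, and the other 3 tested members did not pass. Has1 fell by 0.27 ± 0.04 (SE) on the log2 scale (edgeR adjusted p = 8.34e-05). Cemip fell by 0.53 ± 0.07 (edgeR adjusted p = 1.40e-05) and Cd44 by 0.30 ± 0.05 (edgeR adjusted p = 6.66e-05). These are 1.2-fold, 1.44-fold and 1.23-fold lower levels. Has2 differed by 0.16 ± 0.09 (edgeR adjusted p = 0.230; 95% interval -0.04 to 0.35). Hyal1 differed by -0.07 ± 0.07 (edgeR adjusted p = 0.504; interval -0.22 to 0.08) and Hyal2 by -0.02 ± 0.14 (edgeR adjusted p = 0.938; interval -0.32 to 0.27). The count of 3 of 6 members stands beside 24.2% of all 15074 genes tested, 12% higher and 12.2% lower. The median difference of the 6 was -0.17, against -0.0048 over all genes.

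Inhibitor against inhibitor control asks what blocking miR-200a-3p did beyond transfection. No member was called, and the background was 0% of genes tested. An unadjusted edgeR p under 0.05 was seen in 447 genes, or 2.97% of the 15074 tested. DESeq2 called 0 genes, and limma on log2(FPKM + 1) called 3. Each of the 6 adjusted p-values from edgeR was 1. Has1 differed by -0.03 ± 0.05, with a 95% interval of -0.14 to 0.08, and Cd44 by -0.0067 ± 0.05, with an interval of -0.11 to 0.09. Intervals were wider for Has2 (-0.30 to 0.09), Hyal1 (-0.25 to 0.07), Cemip (-0.22 to 0.13) and Hyal2 (-0.36 to 0.30).

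The remaining 3 comparisons include those that chose the set, so no test is given and their counts support nothing. They also share libraries: both control comparisons use the high-glucose group, and the mimic control enters 2 of them. Mimic against mimic control differed by -0.64 ± 0.05 in Has1, -0.28 ± 0.05 in Cd44, -0.30 ± 0.07 in Hyal1 and -0.25 ± 0.15 in Hyal2. Has2 differed by 0.27 ± 0.10 and Cemip by 0.37 ± 0.11. The part of seed matches in these values was not tested. Of all genes tested, 33.7% passed an adjusted p of 0.05 in this comparison. Without mimic replicate 2, the library with macrophage transcripts, the values were -0.63 in Has1, 0.30 in Has2, -0.35 in Hyal1, -0.10 in Hyal2, 0.38 in Cemip and -0.27 in Cd44. In that library itself Has1 stood at 26.1 CPM and Cd44 at 375 CPM, each just under its replicates. Hyal2 stood at 2.83 CPM there, against 3.82 and 4.51 CPM in the other mimic libraries.

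Mimic control against high glucose gave -1.78 ± 0.04 in Has1, -0.95 ± 0.09 in Has2, -0.71 ± 0.07 in Hyal1, -0.71 ± 0.14 in Hyal2, -3.25 ± 0.09 in Cemip and -1.23 ± 0.05 in Cd44. Inhibitor control against high glucose gave -2.90 ± 0.05 in Has1, 0.04 ± 0.09 in Has2, -0.71 ± 0.07 in Hyal1, -1.2 ± 0.14 in Hyal2, -1.50 ± 0.08 in Cemip and -1.76 ± 0.05 in Cd44. Side by side, Hyal1 had the same difference in both, Has1, Hyal2 and Cd44 were lower in the inhibitor control, and Has2 and Cemip were lower in the mimic control. Of all genes tested, 78.9% passed an adjusted p of 0.05 in the mimic control comparison and 79.5% in the inhibitor control comparison. Batch and cell population cannot be told apart from transfection in these 2 comparisons. Cemip depends on the scale at its low level: on log2(FPKM + 1) its differences were 0.06 for the mimic, -1.05 for the mimic control and -0.67 for the inhibitor control. On that scale Hyal1 was -0.18 and Hyal2 -0.10 with the mimic, and Hyal2 was -0.72 in the inhibitor control.

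**Figure D3:**
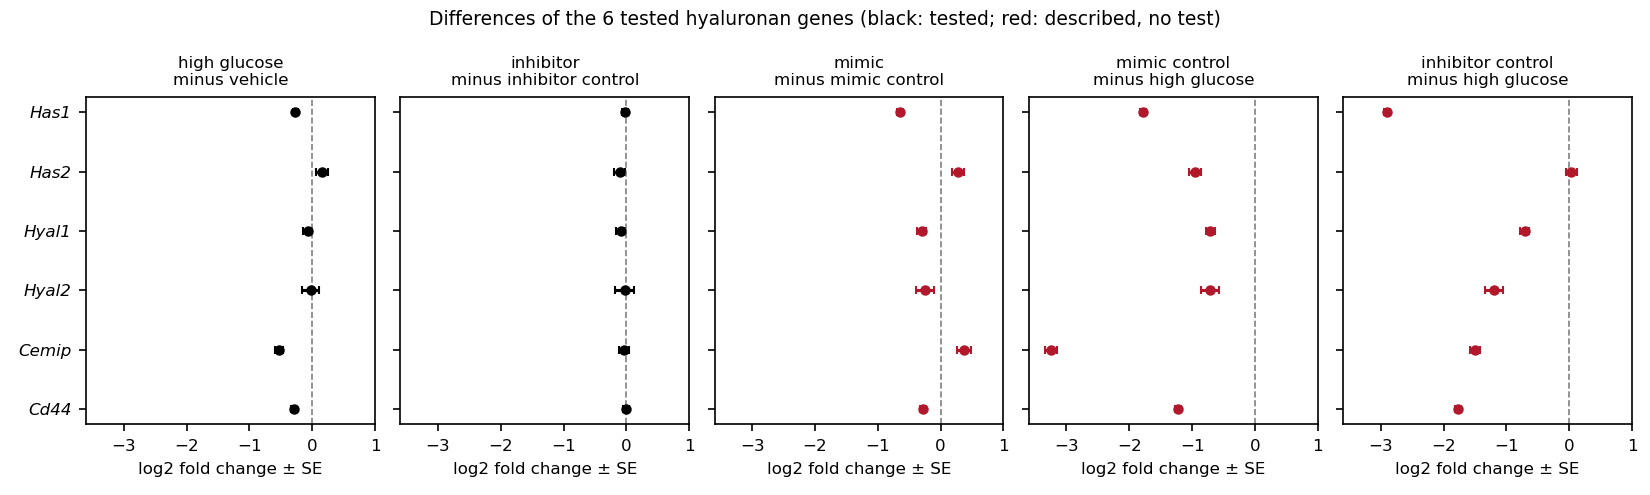
Log2 fold change and standard error of the 6 members that passed the filter, in the 5 comparisons on a shared axis; black points were tested and red points belong to comparisons that include those the set was chosen on. In high glucose the called genes Has1, Cemip and Cd44 lie left of 0 beyond their error. Hyal1, which was not called, does so narrowly (-0.073 ± 0.069). With the inhibitor all 6 lie between -0.11 and 0.

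Other genes of hyaluronan biology were followed by 5 lists, whose counts in high glucose stand beside 12% of all tested genes higher and 12.2% lower. Of 8 enzymes that make the sugar nucleotide precursors, 2 rose and 1 fell in high glucose, with a list median of 0.05. Pgm3, a mutase of the hexosamine pathway, rose by 0.48 ± 0.06 (edgeR adjusted p = 5.46e-06), from a mean of 15.1 to 21.0 CPM. Ugdh, which makes UDP-glucuronic acid, rose by 0.36 ± 0.07 (edgeR adjusted p = 0.00136), from 117 to 150.4 CPM. Uap1l1, related to the enzyme that makes UDP-N-acetylglucosamine, fell by 0.40 ± 0.07 (edgeR adjusted p = 0.000443). Pgm3 and Ugdh thus rose in the libraries in which Has1 fell.

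Among other breakdown genes, 1 of 6 tested rose, where 12% of all genes did, with a list median of 0.09: Hexa, a lysosomal hexosaminidase subunit, by 0.32 ± 0.05 (edgeR adjusted p = 0.000137). Among other receptors, 2 of 5 tested rose and none fell, where 12% of all genes rose, with a median of 0.155. The call of 1 of the 2, Tlr4, was lost in several settings. Hmmr, a hyaluronan-binding protein that also works at the mitotic spindle, rose by 0.97 ± 0.09 (edgeR adjusted p = 1.84e-07). Its libraries read 8.49, 7.98 and 6.32 CPM with vehicle and 15.1, 13.6 and 15.9 CPM in high glucose, without overlap, and its group means were 60.2 to 76.4 CPM in transfected cells. Tlr4, an innate immune receptor that responds to hyaluronan fragments, rose by 0.26 ± 0.09 (edgeR adjusted p = 0.0396), a call that 7 of 15 other settings did not give (adjusted p 0.00312 to 0.278 over all 15), among them leaving out vehicle replicate 1 (0.121) or 3 (0.199) or high glucose replicate 3 (0.278).

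Among 10 tested hyaluronan-binding matrix proteins, 2 rose and 2 fell, where 24.2% of all genes were called, with a median of -0.05. Of the 2 that fell, Hapln4 differed by -0.35 ± 0.09 (edgeR adjusted p = 0.00540), from a mean of 13.6 CPM with vehicle to 10.6 in high glucose. The other settings were not followed for Hapln4. Vcan, the large proteoglycan versican, rose by 0.43 ± 0.06 (edgeR adjusted p = 5.90e-05), from 254 to 340 CPM. Ptx3, a pentraxin that helps organise hyaluronan matrix, rose by 0.44 ± 0.13 (edgeR adjusted p = 0.0157), a call that 3 of 15 other settings did not give: leaving out vehicle replicate 1 (0.0567) or 3 (0.0830) and limma on log2(FPKM + 1) without a filter (0.0619). Ambp, the precursor of bikunin, fell by 0.47 ± 0.17 (edgeR adjusted p = 0.0438) at a mean of 1.81 CPM with vehicle, and 9 of 15 other settings did not give that call (adjusted p 0.0126 to 0.192), among them DESeq2 (0.108), the replicate block (0.0555) and leaving out vehicle replicate 1 (0.0954) or 3 (0.166) or high glucose replicate 1 (0.0695), 2 (0.0960) or 3 (0.125).

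Of 7 genes that tie Cd44 to the cytoskeleton or cut it, 1 rose and 4 fell, where 12% and 12.2% of all genes did, with a median of -0.15. The linker ezrin, Ezr, fell by 0.48 ± 0.05 (edgeR adjusted p = 5.77e-07), from 2170.3 to 1551 CPM, and moesin, Msn, fell by 0.27 ± 0.05 (edgeR adjusted p = 0.000188). The third linker, radixin, Rdx, rose by 0.35 ± 0.06 (edgeR adjusted p = 0.000195). Linkers of 1 family thus moved in different directions in high glucose. With the inhibitor, 0 genes were called in every one of the 5 lists.

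**Figure D4:**
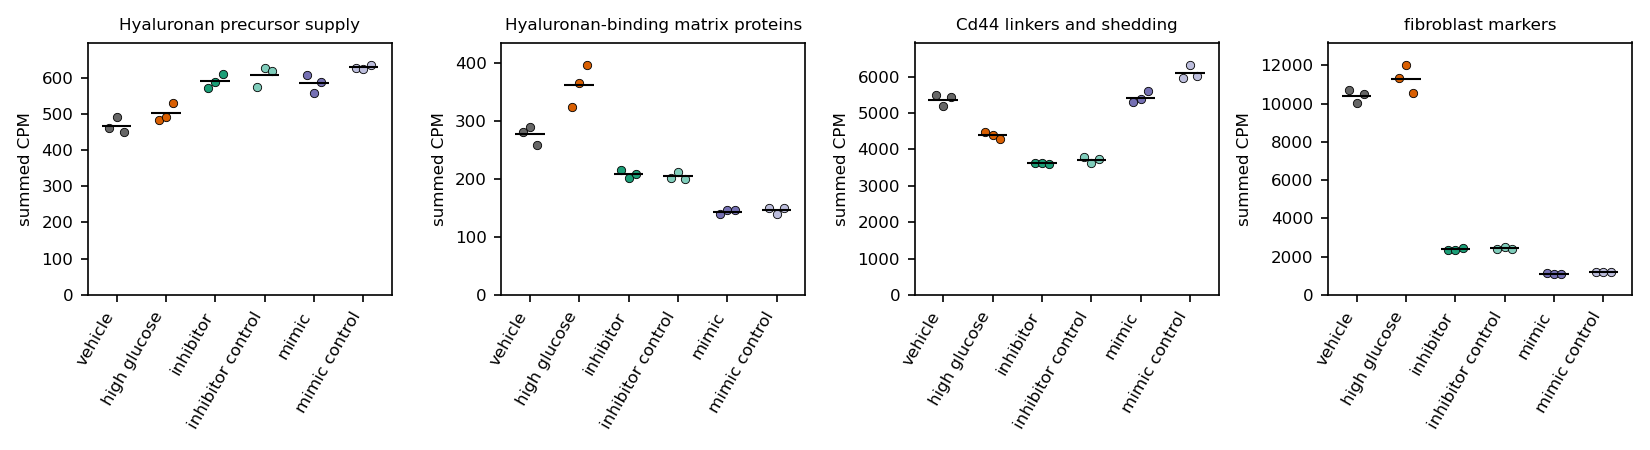
Summed CPM per library of 3 hyaluronan lists and of the fibroblast markers, on linear axes from 0, with points for libraries and a line for the group mean. The matrix list, mostly Vcan, is highest in high glucose at 323 to 395 CPM, and the fibroblast sum, mostly Col3a1, is at 10037 CPM or more in untransfected and at 2515 CPM or less in transfected libraries.

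The genes whose group means ran most like those of Has1 were found by the root mean square difference over the 6 centred log2 group means, a description without a test. They were C1qtnf6 (0.125), a secreted C1q-family protein, Cryab (0.136), a small heat shock protein, Plau (0.149), the urokinase-type plasminogen activator, Prrg2 (0.172) and Arvcf (0.175), a catenin of cell junctions. Plau read 169 CPM with vehicle, 133 in high glucose, 42.1 in the mimic control, 34.0 with the mimic, 20.3 in the inhibitor control and 21.4 with the inhibitor on average. Cryab and C1qtnf6 differed from Has1 in high glucose. Cryab read 524 CPM with vehicle and 559 CPM in high glucose, and C1qtnf6 was nearly level at 34.1 and 33.8 CPM.

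For the other members the nearest genes were Abi2 and Ttc33 (0.0530 and 0.0582) to Has2, Tns2 and Sparcl1 (0.0347 and 0.0558) to Hyal1, and Vax2 and Cc2d1a (0.0476 and 0.05) to Hyal2. Calr3 and Sema3e (0.120 and 0.135) came nearest to Cemip, and Sbk3 and Cx3cl1 (0.0438 and 0.0523) to Cd44. Sbk3 is a weak match, since its group means were 0.0470 to 0.335 CPM, in part under the level of 3 reads, where the prior count added before taking logs narrows differences. Within the set, Hyal1 and Hyal2 were the closest pair at 0.215, Hyal2 and Cd44 followed at 0.333, and Has1 and Has2 were the farthest apart at 1.30. The 2 synthases that these cells expressed were thus the least alike of the 15 pairs.

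**Figure D5:**
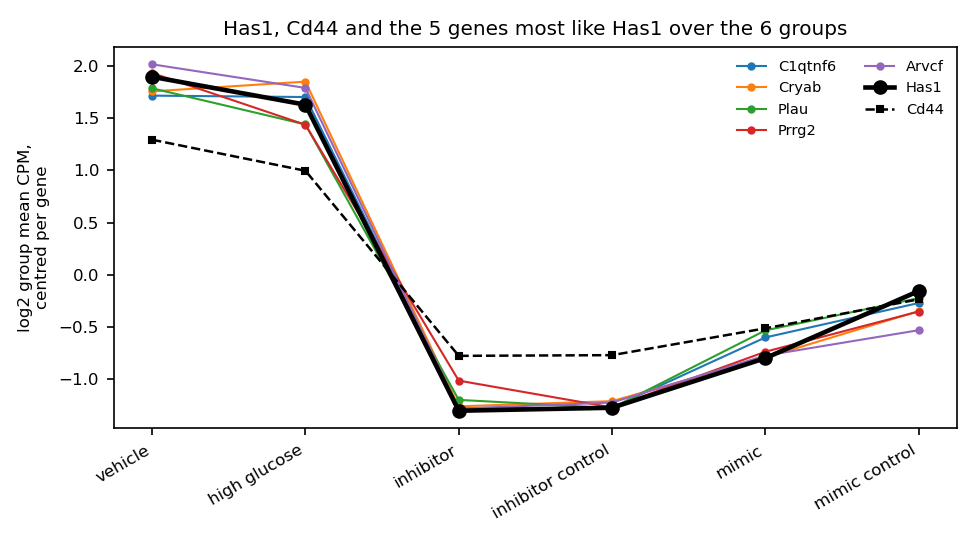
Log2 of the group mean CPM, centred on each gene's own mean, for Has1 (thick black), Cd44 (dashed) and the 5 genes nearest to Has1, over the 6 groups. Has1 spans 3.19 on this scale and Cd44 spans 2.07, with both lowest in the inhibitor pair.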

How the data were processed

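The members and gene lists were chosen with earlier results of these data known. Stranded mRNA libraries gave 150 nt paired reads that were, per the labels' protocols, trimmed with FASTX-Toolkit 0.0.13 and aligned to GRCm39 by HISAT2, with at most 4 mismatches, and uniquely mapped reads were counted. The authors deposited raw read counts per gene and FPKM (fragments corrected for transcript length and sequencing depth). Counter, annotation release and strand mode are not given in the sources used here, so reads of overlapping genes may be shared.

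All 18 libraries were fitted in 1 model with a term per group: edgeR 4.0.16 in R 4.3.3, quasi-likelihood test, TMM scaling and filterByExpr by group, with a count of 10 and a total of 15 as minimums, so that 15074 of 29112 genes were tested. P-values were adjusted by Benjamini-Hochberg over all genes tested, with a threshold of 0.05. CPM are TMM-scaled counts. Overlap of libraries between groups is a description, and its share over all genes was not counted. FPKM were used between genes. The scripts were tested on simulated data.

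Named genes were the 7 members, the 5 genes nearest to Has1 and the 2 nearest to each other tested member, and from each list up to 3 called genes with the largest change in a tested comparison. Hapln4 was named in addition, as the remaining called gene of the matrix list. Predicted gene models were passed over. Alternatives were DESeq2 size factors, upper-quartile scaling, no filter, a replicate block, DESeq2 1.42.0, limma 3.58.1 on log2(FPKM + 1) (FPKM filter 0.1) or log2(FPKM + 0.1), fits of the compared groups alone, and leaving out each library. Site words and motifs were exact string matches.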

Additional observations from a re-analysis of the deposited data

How the results depend on the processing

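Has1, Cemip and Cd44 in high glucose kept their direction and their side of the threshold in 45 of 45 settings, with adjusted p of at most 0.00620, 0.000437 and 0.00615. The 9 values of members that were not called kept both in 125 of 135. The 10 others changed sign when 1 library was left out: Hyal2 ran from -0.104 to 0.0313 in high glucose and from -0.137 to 0.0893 with the inhibitor, where Cemip ran from -0.0928 to 0.0295 and Cd44 from -0.0278 to 0.00446. Genes called with the inhibitor were 26 without the filter, 3 and 3 by limma on log2(FPKM + 1) and log2(FPKM + 0.1), 18 by limma without a filter and 1 in the fit of those groups alone. The cause was not tested. Of 270 settings of values described without a test, 241 moved by less than the spread between replicates and 29 moved. Has2 in the inhibitor control against high glucose ran from -0.0400 to 0.129 when 1 library was left out. Upper-quartile scaling moved the median of all genes to 0.110 in the inhibitor control, and log2(FPKM + 0.1) moved it to -0.129 in the mimic control. Of genes called with the mimic, 46.7% were higher, against 55.1% under upper-quartile scaling and 63.4% on log2(FPKM + 0.1).

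Same-numbered libraries did not deviate together (correlations -0.174 to 0.103), so the numbers were not taken as pairs. With a replicate block, 3500 genes were called in high glucose, 0 with the inhibitor, 4883 with the mimic, 11844 in the mimic control and 11950 in the inhibitor control. Hyal2 (97 to 156 reads a library with the mimic), Cemip and Has3 were the members most limited by depth.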

Other observations

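Genes beside the members did not all move with them. Spaca6, 314 bases from Has1 on chromosome 17, differed by -0.83 on the log2 scale in high glucose against vehicle. In the inhibitor control against high glucose it differed by 4.23, where Has1 stood at -2.90. In the mimic control against high glucose, near Hyal1 and Hyal2 on chromosome 9, Rassf1 stood at 2.52 and Ifrd2 at 2.58, while Hyal3 stood at -2.87 and Gnai2 at -1.21. Tlnrd1, 48138 bases from Cemip, differed by -0.49 in high glucose against vehicle. These neighbours were chosen after their values were seen, so no p-value is given.

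Within the precursor list, Gnpnat1, an acetyltransferase of the hexosamine pathway, read 11.3 CPM with vehicle and 11.7 in high glucose on average. It read 79.1 CPM in the inhibitor control, 77.5 with the inhibitor, 60.8 in the mimic control and 73.3 with the mimic. Gnpnat1 too was chosen after its values were seen. Uap1l1 read 26.5 CPM in high glucose, 272 in the mimic control, 197 with the mimic, 98.0 in the inhibitor control and 94.3 with the inhibitor. Uap1, of the same list, went the other way. It read 103 CPM in high glucose, 29.3 in the mimic control, 30.4 with the mimic, 36.0 in the inhibitor control and 37.1 with the inhibitor. Of the 8 precursor genes, 2 were higher and 5 lower in the mimic control than in high glucose, where 39% and 39.9% of all tested genes were. In the inhibitor control 5 were higher and 3 lower, against 40.1% and 39.3%.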
